A study of Mus musculus with 12 samples.

Results

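The identity genes of GABAergic interneurons examined were Sst, Npy, Vip, Cck, Lhx6, Pvalb, Erbb4, Calb2 and Nos1, 9 genes chosen by symbol from a table of 52634 genes. All 9 had a row, and all 9 passed the filter on low counts that left 17631 genes. Gene expression had been measured by RNA sequencing of the dorsal hippocampus of mice on postnatal day 7, in 12 libraries. SERTPyramid libraries came from pups named for removal of the serotonin transporter SERT, encoded by Slc6a4, from pyramidal neurons, which the series title places in CA3. The sample titles write this genotype SERTPyramid∆ and the genotype field SERTPyramid. SERTfl/fl libraries came from control pups, whose name denotes homozygous floxed alleles. Each genotype had 3 libraries labelled female and 3 labelled male, each from tissue pooled from 4 mice, so a library is a pool and not an animal. The Cre line, the strain and any sharing of litters between pools are not stated in the labels. Each p-value below therefore rests on the variation among these pools.

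GABAergic interneurons are the inhibitory neurons of the hippocampus, born in the ganglionic eminences of the ventral forebrain and sorted into classes by the peptides, calcium-binding proteins and enzymes they make. Cells from the medial eminence need the transcription factor LHX6 and become mostly somatostatin or parvalbumin cells, while the caudal eminence gives rise to most VIP and CCK cells. Some of the genes are not restricted to interneurons: Cck and Nos1 are also transcribed in hippocampal pyramidal neurons, and Calb2 in Cajal-Retzius cells and immature granule neurons. In such bulk tissue, fewer cells of a type and less RNA per cell cannot be told apart.

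The promoters of the 4 peptide genes are shown because peptide genes are known targets of factors that bind the cyclic AMP response element. Another reason was that 2 of them, Cck and Npy, had separate genotype groups under the female label alone. There 18.8 percent of all genes tested had separate groups, and neither gene was called in any fit. RefSeq start sites on GRCm38.p6 were listed for 8 of the 9 genes, and each window runs from 250 bases before the start to 50 bases after it, printed 5′ to 3′ on the gene's strand. Capitals mark the palindrome TGACGTCA, its shorter form TGACGTC (which lies within the palindrome) or the variant TGCGTCA, searched on both strands.
Sst, chr16:23890795-23891094, minus strand: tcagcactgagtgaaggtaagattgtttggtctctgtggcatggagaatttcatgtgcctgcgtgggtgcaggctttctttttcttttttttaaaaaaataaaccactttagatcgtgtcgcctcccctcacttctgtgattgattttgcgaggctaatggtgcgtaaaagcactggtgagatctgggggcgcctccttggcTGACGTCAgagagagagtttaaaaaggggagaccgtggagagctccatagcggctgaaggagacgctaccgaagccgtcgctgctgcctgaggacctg
Npy, chr6:49822460-49822759, plus strand: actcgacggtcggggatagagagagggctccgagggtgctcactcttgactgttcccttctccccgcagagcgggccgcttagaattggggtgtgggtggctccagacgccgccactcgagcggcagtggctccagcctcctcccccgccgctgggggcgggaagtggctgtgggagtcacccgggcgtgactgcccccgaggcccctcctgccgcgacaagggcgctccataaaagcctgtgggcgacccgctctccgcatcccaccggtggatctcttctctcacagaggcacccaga
Vip, chr10:5638968-5639267, plus strand: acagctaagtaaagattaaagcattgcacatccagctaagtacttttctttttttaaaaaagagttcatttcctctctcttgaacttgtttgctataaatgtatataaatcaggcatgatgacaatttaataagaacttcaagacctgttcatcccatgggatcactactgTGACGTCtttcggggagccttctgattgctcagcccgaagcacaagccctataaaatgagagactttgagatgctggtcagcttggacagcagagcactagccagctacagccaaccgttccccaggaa
Cck, chr9:121495645-121495944, minus strand: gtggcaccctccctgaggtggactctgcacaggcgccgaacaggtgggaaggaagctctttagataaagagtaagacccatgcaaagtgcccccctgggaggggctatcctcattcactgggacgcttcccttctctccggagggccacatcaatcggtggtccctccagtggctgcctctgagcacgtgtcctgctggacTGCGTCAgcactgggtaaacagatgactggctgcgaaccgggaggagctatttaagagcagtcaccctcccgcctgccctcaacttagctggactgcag
Sst held the palindrome, starting at position -48 from the annotated start, a sequence found in 1.79 percent of 32851 promoter windows of this length. Vip held TGACGTC at position -79, found in 3.21 percent of windows, and Cck held TGCGTCA at position -49, found in 2.12 percent. Of the other members searched, Nos1 also held TGCGTCA. The Npy window held none of these letters, and matches are a description of sequence and not of binding.

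Library totals were 18747249 to 25522347 counts, so 3 counts, taken as the upper limit that a count of 0 allows, equal 0.118 to 0.160 CPM (a count scaled to a common library total). Such limits cover counting error only. Slc6a4 had 1 to 12 counts in SERTPyramid libraries and 0 to 17 in SERTfl/fl libraries, too few to check the genotype labels. By Xist and Y-linked transcripts, 10 of 12 libraries did not match the sex on their label, the exceptions being SERTfl/fl replicate 1 of each labelled sex. SERTPyramid libraries labelled female had 13 to 46 Xist counts and those labelled male 16794 to 21713, so each of these groups was of a single kind, opposite to its label. SERTfl/fl replicate 3 labelled female had 527 Xist beside 2849 Y-linked counts, against 59 and 3059 in replicate 2, so it was less clearly of a single kind. Each SERTfl/fl group held libraries of both kinds. Every genotype comparison that uses all libraries of a label therefore sets SERTPyramid libraries of a single kind against mixed controls. Female and male are labels only. The hippocampal genes Fibcd1, a CA1 marker, and Grik4, a CA3 marker, had at least 90.3 and 72.0 CPM in every library. Summed markers of striatum, 7 genes, were 61.2 to 81.0 CPM in SERTPyramid and 60.9 to 73.0 CPM in SERTfl/fl libraries. Those of thalamus, 6 genes, were 122 to 143 CPM in SERTPyramid and 125 to 143 CPM in SERTfl/fl libraries, and the thalamic gene Gbx2 was at or below 0.118 CPM. Choroid plexus markers, 10 genes, varied most, 31.7 to 2537 CPM in SERTPyramid and 989.9 to 1864 CPM in SERTfl/fl libraries.

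Levels per kilobase of exon placed the 9 genes in a steep order. Cck averaged 173 CPM per kilobase over the 12 libraries (SD 10.9, n = 12) and Sst 164 (SD 13.7, n = 12). These peptide genes overlapped in range, and Cck lay above Sst in 9 of 12 libraries. Npy followed at 44.3 (SD 2.46) and Calb2, the gene of the calcium-binding protein calretinin, at 39.5 CPM per kilobase (SD 2.33, n = 12), with overlapping ranges but Npy above Calb2 in 12 of 12 libraries. Lhx6 stood at 8.59 (SD 0.543) and Nos1, the gene of neuronal nitric oxide synthase, at 7.52 CPM per kilobase (SD 0.464, n = 12), again with overlapping ranges. Erbb4, a receptor tyrosine kinase gene, was at 4.22 (SD 0.338), Vip at 1.10 (SD 0.131) and Pvalb at 0.404 CPM per kilobase (SD 0.144, n = 12). The last 3 genes overlapped neither each other nor a neighbour in the order. Exon lengths combine all annotated transcripts, which lowers the value of genes with long alternative ends.

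**Figure D1:**
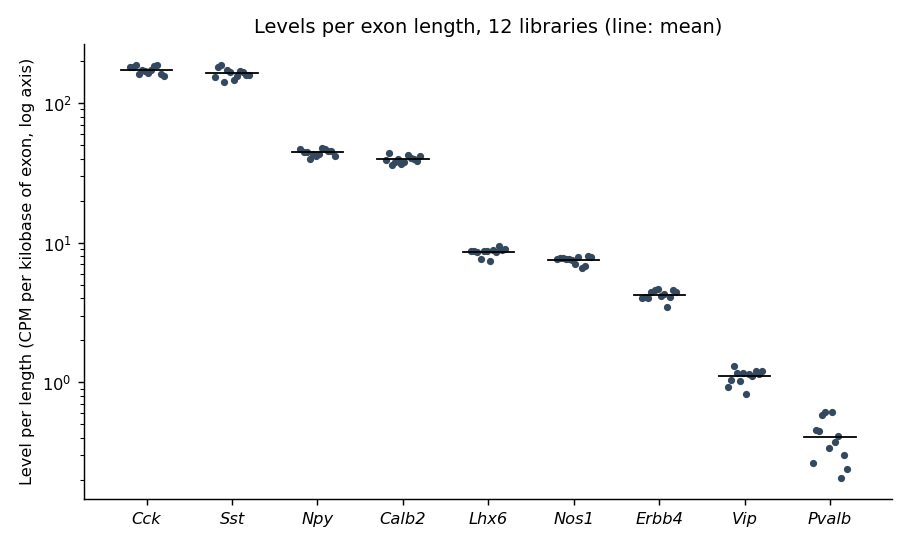
Level of each gene in CPM per kilobase of exon on a log axis, with a point for each of 12 libraries and a line at their mean. Cck and Sst lie highest at 173 and 164, and Pvalb lowest at 0.404.

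Erbb4 was lower in SERTPyramid than in SERTfl/fl libraries under both sex labels, 0.887-fold on average, and none of the 9 genes passed an adjusted p of 0.05 in the fit of 12 libraries. Cck and Npy lay higher in SERTPyramid libraries labelled female, without overlap with their controls and without passing the test. Sst, Vip, Lhx6, Calb2 and Nos1 overlapped between genotypes under both labels. In edgeR's quasi-likelihood test 0 of 9 were called in each genotype comparison, beside 0 percent of all 17631 genes, and DESeq2 and limma voom also called 0. At an unadjusted p under 0.05, DESeq2 gave 1 of 9 among labelled females (5.98 percent of all genes), 0 among labelled males (1.75 percent), 1 for the mean difference (4.71 percent) and 0 for the interaction (2.84 percent). Limma voom gave 2 of 9 among labelled females (13.3 percent), 2 among labelled males (4 percent), 2 for the mean difference (10.6 percent) and 0 for the interaction (5.44 percent). At an unadjusted p under 0.05, edgeR gave 1 of 9 among libraries labelled female (8.04 percent of all genes) and 1 of 9 among those labelled male (3.16 percent), Erbb4 in both. The unadjusted count was also 1 for the mean of both genotype differences (6.49 percent of all genes; Erbb4) and 1 for the difference between them (4.45 percent; Pvalb). The median log2 fold change of the 9 genes was 0.03 among labelled females and -0.04 among labelled males, against medians of -0.00038 and 0.0016 over all genes tested.

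Leaving out SERTfl/fl replicate 1 of both labels, the control libraries whose transcripts matched their label, called none of the 9 genes but moved several values. The libraries then left under each label were of a single kind by Xist and Y-linked transcripts. Among them SERTfl/fl replicate 3 labelled female also held 527 Xist counts. Among labelled males the log2 fold change became 0.11 for Cck, against 0.03 with all libraries, and -0.17 for Nos1, against -0.10 (edgeR adjusted p = 0.798 for each). Among labelled females that of Sst became 0.03, against 0.10 with all libraries, and that of Erbb4 was -0.21, against -0.19. The Erbb4 mean difference was -0.20 (edgeR adjusted p = 0.494).

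**Figure D2:**
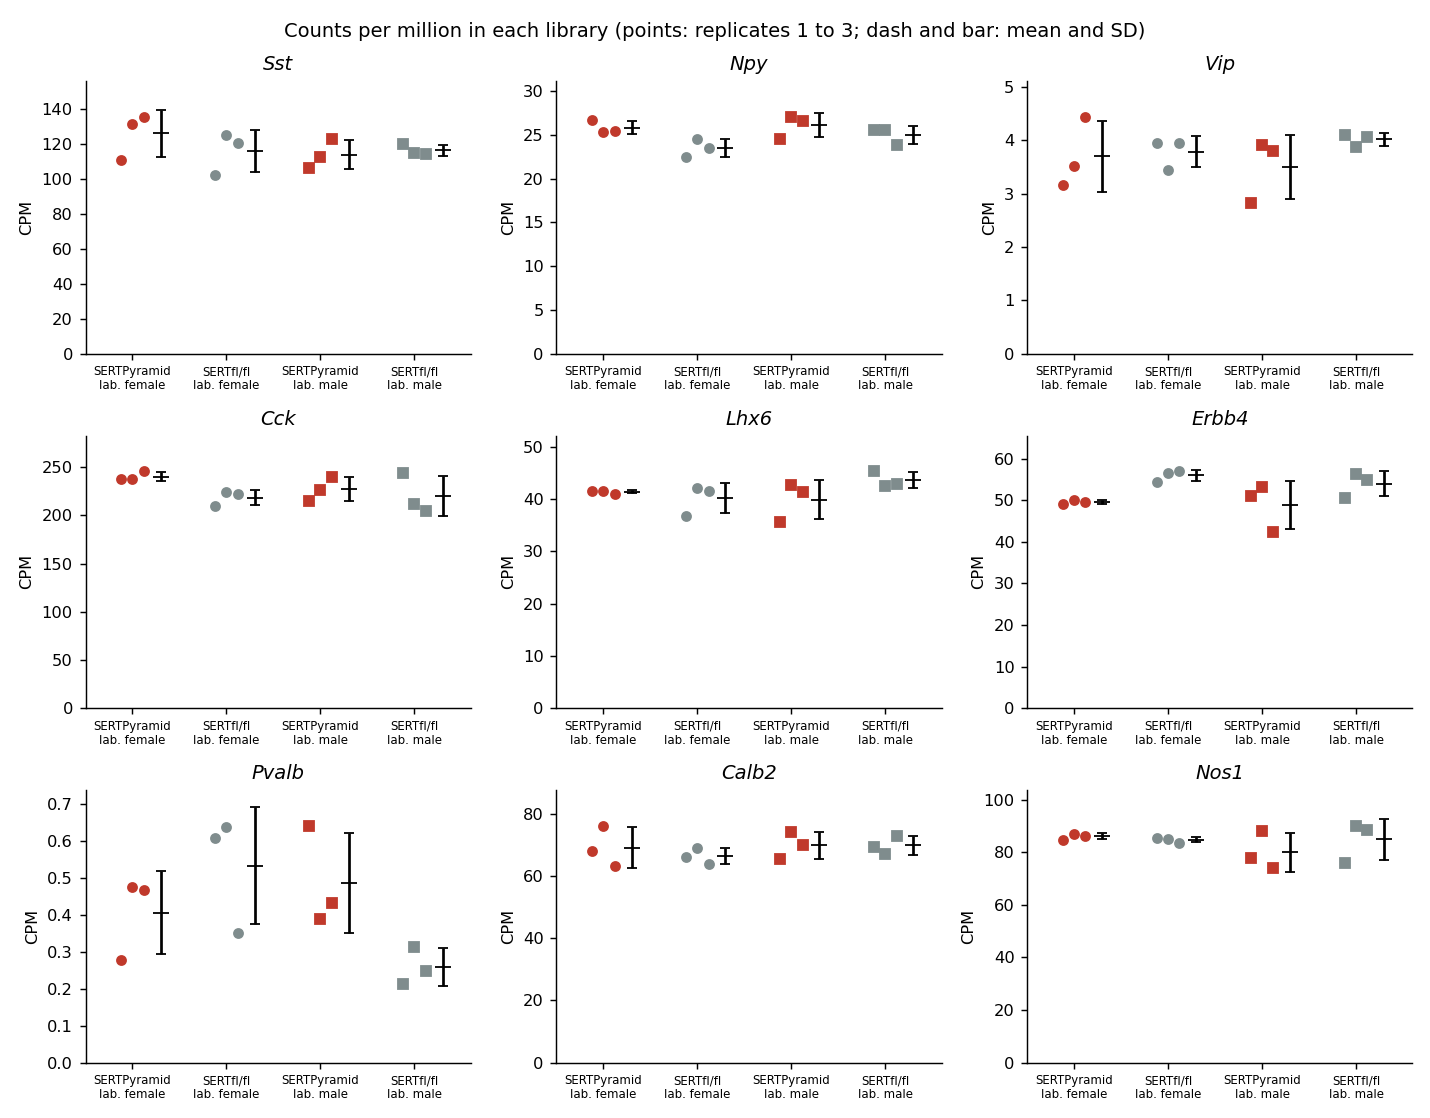
CPM of each gene in every library, in 4 groups of 3, with the group mean and SD as a dash and bar; vertical axes start at 0. Erbb4 in SERTPyramid libraries labelled female lies at 49.2 to 50.2 CPM, below 54.4 to 57.1 CPM in their controls.

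Among the neuropeptides, Cck encodes cholecystokinin, which marks a class of basket cells. Its level was 237, 237 and 246 CPM in SERTPyramid libraries labelled female, against 209, 224 and 222 CPM in SERTfl/fl libraries labelled female. Among libraries labelled male it was 215, 226 and 240 CPM in SERTPyramid, against 244, 212 and 204 CPM in SERTfl/fl. The labelled-female groups did not overlap, whereas in labelled males SERTfl/fl replicate 1 was the highest of its 6. The log2 fold change was 0.12 ± 0.06 among labelled females (SE, edgeR adjusted p = 0.631) and 0.03 ± 0.06 among labelled males (SE, edgeR adjusted p = 0.999). Markers of pyramidal neurons, 10 genes that include the vesicular transporter Slc17a7, summed to 4341 to 4605 CPM in SERTPyramid and 4461 to 4980 CPM in SERTfl/fl libraries labelled female. Their part in the Cck values was not tested.

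Npy encodes neuropeptide Y, made by neurogliaform, ivy and many somatostatin cells. It stood at 26.7, 25.3 and 25.4 CPM in SERTPyramid libraries labelled female, against 22.5, 24.5 and 23.5 CPM in their SERTfl/fl controls. Labelled-male libraries had 24.5, 27.1 and 26.6 CPM in SERTPyramid, against 25.6, 25.6 and 23.8 CPM in SERTfl/fl. The first pair of groups did not overlap and the second did. The log2 fold change was 0.12 ± 0.06 among labelled females (SE, edgeR adjusted p = 0.687) and 0.05 ± 0.06 among labelled males (SE, edgeR adjusted p = 0.999). In all, 3 of 9 genes had groups that did not overlap among labelled females, beside 18.8 percent of all genes tested. Cck and Npy lay above (11.8 percent of all genes) and Erbb4 below (6.99 percent). Among labelled males 1 of 9 did not overlap, Pvalb, beside 6.75 percent of all genes, with 1 above (4.09 percent) and 0 below (2.66 percent).

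Sst, the somatostatin gene of dendrite-targeting interneurons, had 111, 132 and 136 CPM in SERTPyramid libraries labelled female, against 102, 125 and 120.3 CPM in SERTfl/fl. Labelled-male libraries had 106, 112 and 122.9 CPM in SERTPyramid, against 120.0, 115 and 114 CPM in SERTfl/fl. The groups overlapped, and the mean genotype difference was a 1.02-fold change with a 95 percent interval of 0.932 to 1.12. Vip, which marks interneurons that mainly inhibit other interneurons, had only 66 to 105 counts in SERTPyramid and 77 to 99 counts in SERTfl/fl libraries, and its mean change of 0.916-fold had the interval 0.777 to 1.08.

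Lhx6, the transcription factor gene of the medial lineage, had 41.6, 41.6 and 41.1 CPM in SERTPyramid libraries labelled female, against 36.9, 42.1 and 41.5 CPM in SERTfl/fl. In labelled-male libraries it had 35.7, 42.7 and 41.3 CPM in SERTPyramid, against 45.4, 42.5 and 43.0 CPM in SERTfl/fl. The groups overlapped under both labels, and the mean change was 0.962-fold with an interval of 0.897 to 1.03. SERTPyramid replicate 1 labelled male and SERTfl/fl replicate 1 labelled female had the lowest Lhx6 and also the lowest Sst. In the same libraries the pyramidal markers were highest, at 4933 and 4980 CPM, against 4105 to 4605 CPM in the other 10. Without SERTfl/fl replicate 1 labelled female, the Lhx6 log2 fold change among labelled females turned to -0.03.

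Pvalb, the parvalbumin gene of fast-spiking basket cells, which comes on later in postnatal life, was close to its detection limit. It had 7, 10 and 11 counts in SERTPyramid libraries labelled female, against 14, 15 and 8 counts in SERTfl/fl. Labelled-male libraries had 15, 9 and 10 counts in SERTPyramid, against 4, 8 and 6 counts in SERTfl/fl. The labelled-male groups did not overlap, with a log2 fold change of 0.86 ± 0.41 (SE, edgeR adjusted p = 0.999). The difference between the genotype changes under the female and the male label was -1.29 ± 0.55 on the log2 scale (SE, edgeR adjusted p = 0.999), at an unadjusted p of 0.0317, which was 0.114 without SERTfl/fl replicate 1 of both labels. Pvalb was not tested when the labelled-male libraries were fitted alone, since it did not pass the filter there. Of the other 8 genes, 0 were called in that fit, and 0 had an unadjusted p under 0.05, beside 1.86 percent of 17049 genes.

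Calb2 had 63.1 to 76.3 CPM in the 6 SERTPyramid libraries (median 69.1) and 64.0 to 73.1 CPM in the 6 SERTfl/fl libraries (median 68.2), with a mean change of 1.01-fold and an interval of 0.943 to 1.08. Summed markers of Cajal-Retzius cells, 6 genes led by Reln, were 510 to 589 CPM in SERTPyramid and 517 to 579 CPM in SERTfl/fl libraries. Nos1 had 73.8 to 88.0 CPM in SERTPyramid (median 85.5) and 76.0 to 90.1 CPM in SERTfl/fl libraries (median 85.2), a mean change of 0.967-fold with an interval of 0.898 to 1.04. A predicted antisense gene overlaps Nos1 exons but held 26 counts over all 12 libraries. These intervals do not show that the genotypes were alike.

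**Figure D3:**
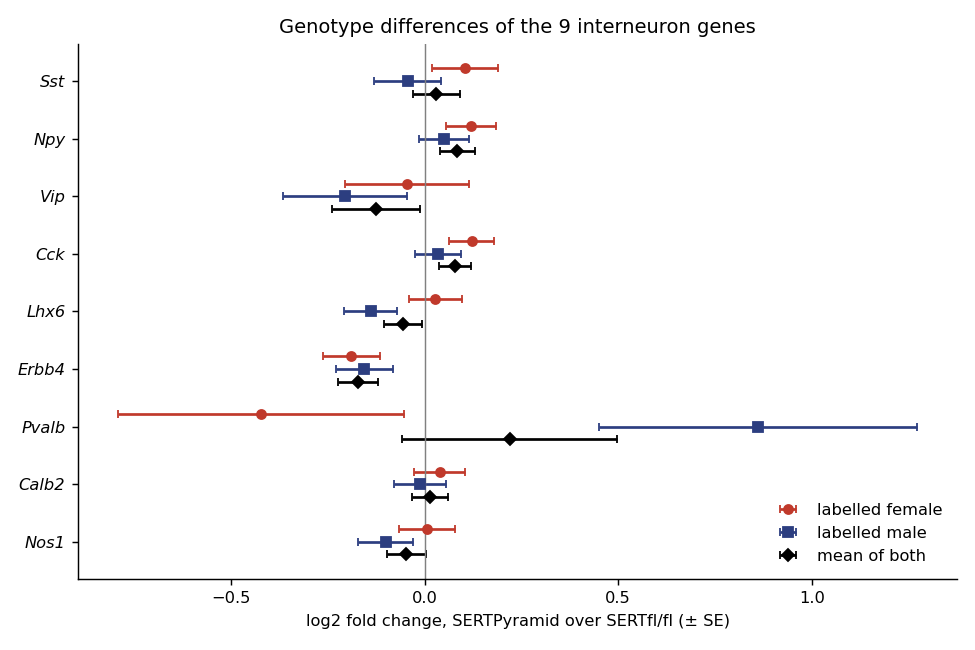
Log2 fold change of each gene, SERTPyramid over SERTfl/fl, with SE from edgeR's fit of 12 libraries; circles are libraries labelled female, squares labelled male and diamonds the mean of both. Erbb4 is below 0 in both (-0.19 and -0.16), and Pvalb has the widest error (SE 0.41 among labelled males).

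ERBB4 is the neuregulin receptor that in the hippocampus is found mainly on interneurons, where it supports the excitatory synapses they receive. Erbb4 (ENSMUSG00000062209, chromosome 1, 68032186 to 69108059, minus strand, GRCm38) had 49.2, 50.2 and 49.7 CPM in SERTPyramid libraries labelled female, against 54.4, 56.6 and 57.1 CPM in SERTfl/fl. Labelled-male libraries had 51.0, 53.2 and 42.4 CPM in SERTPyramid, against 50.6, 56.3 and 55.0 CPM in SERTfl/fl. The labelled-female groups were fully separate, and the labelled-male groups overlapped through SERTfl/fl replicate 1. Over both labels Erbb4 averaged 49.3 ± 3.64 CPM in SERTPyramid and 55.0 ± 2.39 CPM in SERTfl/fl libraries (SD, n = 6 each).

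The Erbb4 log2 fold change was -0.19 ± 0.07 among labelled females (SE, edgeR adjusted p = 0.568) and -0.16 ± 0.07 among labelled males (SE, edgeR adjusted p = 0.999). Their mean was -0.17 ± 0.05 (SE, edgeR adjusted p = 0.756), which is 0.887-fold with an unadjusted 95 percent interval of 0.822 to 0.957. The difference between the labels was -0.03 ± 0.10 (SE, edgeR adjusted p = 0.999). When the 6 libraries labelled female were fitted alone, Erbb4 fell by 0.19 on the log2 scale (SE 0.04, edgeR adjusted p = 0.0231). It was the only 1 of the 9 genes called there, beside 2.43 percent of 17108 genes called and 0.777 percent called lower. At an unadjusted p under 0.05 there were 2 of 9, beside 13.9 percent. That call was lost when SERTPyramid replicate 1 or 2 or SERTfl/fl replicate 2 or 3 was left out (edgeR adjusted p = 0.0671, 0.0970, 0.113 and 0.110) and kept without SERTPyramid replicate 3 or SERTfl/fl replicate 1 (0.0319 and 0.0338). Among labelled males the log2 fold change was -0.05 without SERTPyramid replicate 3 and -0.24 without SERTPyramid replicate 2.

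The annotated transcripts of Erbb4 hold 12355 bases of exon in all, and libraries differed in the level of long genes relative to short ones. The cause of this difference was not tested. Among genes with a mean log2 CPM of at least 1, for each library the median deviation on the log2 scale of 445 genes with at most 1000 bases of exon was taken from that of 2621 genes with more than 8000. This length shift was lowest in SERTPyramid replicate 3 labelled male (-0.17) and next lowest in SERTfl/fl replicate 1 labelled male (-0.11), against -0.03 to 0.10 in the other 10 libraries. The same 2 libraries had the lowest Erbb4 of their group and the lowest Nos1 of all 12, 73.8 and 76.0 CPM. The long genes as a class had a median log2 fold change of -0.03 among labelled females and -0.03 among labelled males. With each library's trend with exon length removed, an alternative chosen after the data were seen, the Erbb4 log2 fold change was -0.17 among labelled females and -0.13 among labelled males. Neither value was called in that fit of all 12 libraries. In the labelled-female libraries alone the Erbb4 value was -0.17 with that correction (edgeR adjusted p = 0.0457).

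**Figure D4:**
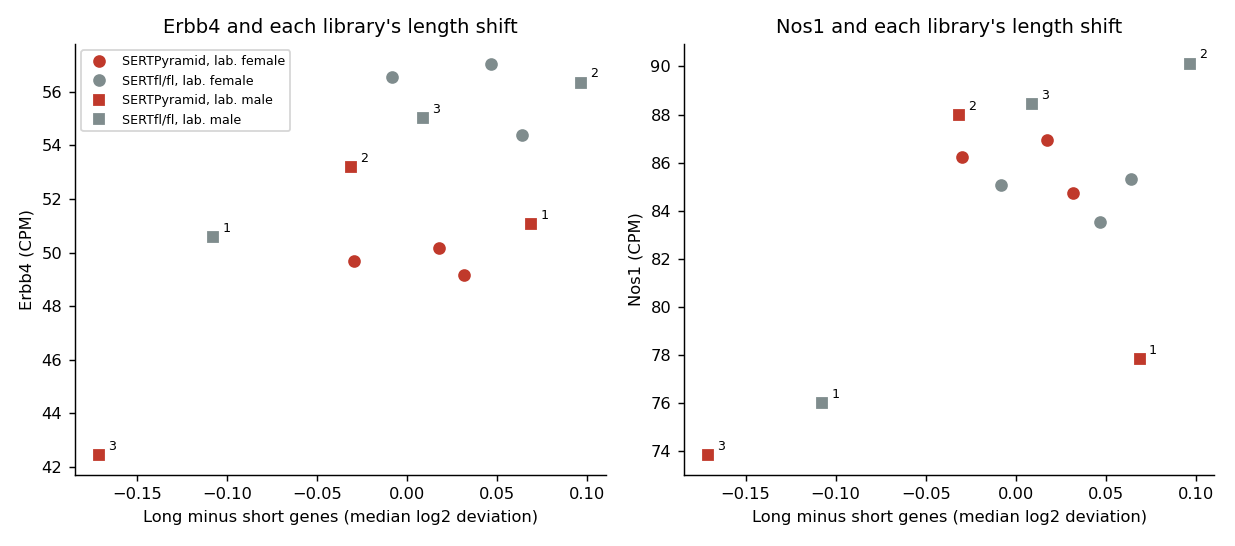
CPM of Erbb4 and Nos1 (vertical axes, not from 0) against each library's length shift, the median log2 deviation of long genes minus that of short genes; red is SERTPyramid, grey SERTfl/fl, circles labelled female and squares labelled male with replicate numbers. The library at -0.17, SERTPyramid replicate 3 labelled male, has the lowest Erbb4 (42.4 CPM) and Nos1 (73.8 CPM).

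Ligands, receptors and partners of the 9 gene products formed a list of 19 genes, of which 18 were tested. In the fit of 12 libraries 0 of 18 were called, with 11 below 0 among labelled females (median log2 fold change -0.03; 50.1 percent of all genes below 0) and 8 below 0 among labelled males (median 0.03; 49.5 percent of all genes). In the labelled-female libraries alone 2 of 18 were called, beside 2.43 percent of all genes, both of them lower (0.777 percent of all genes). Nrg3, a neuregulin and thus a ligand of ERBB4, had 68.8, 70.9 and 75.1 CPM in SERTPyramid, against 76.8, 81.6 and 81.1 CPM in SERTfl/fl libraries labelled female. It fell by 0.17 on the log2 scale there (SE 0.05, edgeR adjusted p = 0.0424). Gucy1a2, a subunit of the guanylate cyclase that nitric oxide activates, had 11.3, 10.4 and 8.51 CPM in SERTPyramid, against 11.7, 13.6 and 13.5 CPM in SERTfl/fl libraries labelled female. It fell by 0.37 (SE 0.10, edgeR adjusted p = 0.0435).

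Both genes had separate groups under the female label, with SERTPyramid below, beside 6.99 percent of all genes. Under the male label the groups overlapped, with log2 fold changes of -0.02 for Nrg3 and -0.06 for Gucy1a2. The Nrg3 call was lost in 4 of 6 fits that left out 1 library (edgeR adjusted p = 0.120 to 0.184) and the Gucy1a2 call in 4 of 6 (0.141 to 0.185). The other neuregulin genes were not called: Nrg1 averaged 11.9 ± 1.23 CPM in SERTPyramid and 12.3 ± 1.49 CPM in SERTfl/fl libraries labelled female, while Nrg2 averaged 7.57 ± 0.582 CPM in SERTPyramid and 6.83 ± 0.710 CPM in SERTfl/fl (SD, n = 3 each). The partner subunits Gucy1a1 and Gucy1b1 had log2 fold changes of 0.03 and -0.02 under the female label. Peptide receptors were all uncalled, with levels from 1.77 CPM for Vipr2 to 72.5 CPM for Sstr2 averaged over the 12 libraries. The CCK receptor gene Cckar, at 0.0939 CPM, was not tested.

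General genes of GABAergic neurons, 12 rows for 11 symbols with 11 tested, gave 0 calls in any fit, with medians of 0.04 among labelled females and -0.02 among labelled males. Gad1 and Gad2, which encode the enzymes that make GABA, had mean log2 fold changes of 0.01 and -0.01. The 3 genes of the list with the smallest p for the mean genotype difference were Dlx5 (0.10 ± 0.09 SE), Dlx6os1 (-0.06 ± 0.08 SE) and Dlx2 (-0.04 ± 0.06 SE), of the Dlx family of transcription factors and its antisense transcript, whose reads cannot be separated from the opposite strand in such libraries. Genes of the medial lineage, 15 of 16 tested, gave 0 calls with medians of -0.02 among labelled females and -0.05 among labelled males, and led with Syt2 (-0.14 ± 0.07 SE), a synaptotagmin of fast-spiking terminals, Nkx2-1 (0.34 ± 0.16 SE), the factor upstream of Lhx6, and Sox6 (-0.11 ± 0.06 SE). Nkx2-1 was scarce at 1.82 CPM.

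Genes of the caudal lineage, 17 of 17 tested, gave 0 calls with medians of -0.003 among labelled females and 0.02 among labelled males. The smallest p belonged to Npas1 (0.08 ± 0.04 SE), Prox1 (-0.11 ± 0.05 SE) and Adarb2 (-0.10 ± 0.06 SE), and Prox1 is also a defining transcription factor gene of dentate granule neurons. Migration and chloride transport genes, 10 of 10 tested, gave 0 calls, with medians of -0.09 among labelled females and -0.03 among labelled males and 8 of 10 below 0 under each label, against 50.1 and 49.5 percent of all genes. For the mean difference 10 of 10 were below 0, against 50.7 percent of all genes, with a median of -0.06. They were led by the semaphorin receptor genes Nrp1 (-0.08 ± 0.04 SE) and Nrp2 (-0.08 ± 0.04 SE) and the Slit receptor gene Robo1 (-0.08 ± 0.04 SE). Some marker lists of other cell types also lay to one side of 0 in the fit of 12 libraries, with 0 genes called. Dentate granule markers, 6 genes that include Prox1, were 6 of 6 below 0 among labelled females (median -0.18) and 6 of 6 above 0 among labelled males (median 0.18). For the interaction, 4 of 6 had an unadjusted edgeR p under 0.05, beside 4.45 percent of all genes. Summed, they were 266 to 295 CPM in SERTPyramid and 299 to 367 CPM in SERTfl/fl libraries labelled female, and 301 to 328 CPM in SERTPyramid and 273 to 313 CPM in SERTfl/fl libraries labelled male. In the labelled-female libraries alone 1 of the 6 was called lower, C1ql2 (-0.33 ± 0.09 SE, edgeR adjusted p = 0.0483), beside 0.777 percent of all genes. Called higher in that fit were 2 of 6 oligodendrocyte precursor, 1 of 7 astrocyte and 1 of 6 striatal markers tested, beside 282 of 17108 genes. Oligodendrocyte precursor markers were 5 of 6 above 0 under each label and for the mean difference (median 0.10). For that mean, 3 of 6 had an unadjusted edgeR p under 0.05, beside 6.49 percent of all genes. Choroid plexus markers were 10 of 10 below 0 among labelled females (median -0.45) and 10 of 10 for the mean difference (median -0.24). Their sums were 1289, 744 and 31.7 CPM in SERTPyramid libraries labelled female, against 997, 1322 and 990 CPM in SERTfl/fl. SERTPyramid replicate 3 was thus far below the rest, and genes of such a list can move together with the amount of that tissue. Endothelial markers were 7 of 7 below 0 among labelled females (median -0.14). The part of these cell types in the values of the interneuron genes and their related lists was not tested. Medians of all genes lay within 0.003 of 0 in these comparisons.

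Across the 12 libraries the 9 genes varied little, with coefficients of variation of 5.54 percent for Npy to 8.36 percent for Sst, apart from Vip at 11.9 and Pvalb at 35.6 percent. Of 36 pairs, 0 had a correlation of log2 CPM that passed adjustment over the pairs. Erbb4 and Nos1 had the highest, with Pearson's r = 0.73 (permutation p = 0.0074, adjusted 0.158) and Spearman's rho = 0.41 (permutation p = 0.185, adjusted 0.652). Without the 2 libraries farthest from the Erbb4 median r was 0.55 (permutation p = 0.108). Within groups, from deviations from the group means, r was 0.85. Lhx6 and Pvalb had the most negative, r = -0.70 (permutation p = 0.0088, adjusted 0.158) and rho = -0.62 (permutation p = 0.0338, adjusted 0.502), with r = -0.49 (permutation p = 0.152) without the 2 farthest libraries. Sst and Cck had r = 0.65 (permutation p = 0.0234, adjusted 0.281) and rho = 0.59 (permutation p = 0.0489, adjusted 0.502), with r = 0.40 (permutation p = 0.253) without the 2 farthest.

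**Figure D5:**
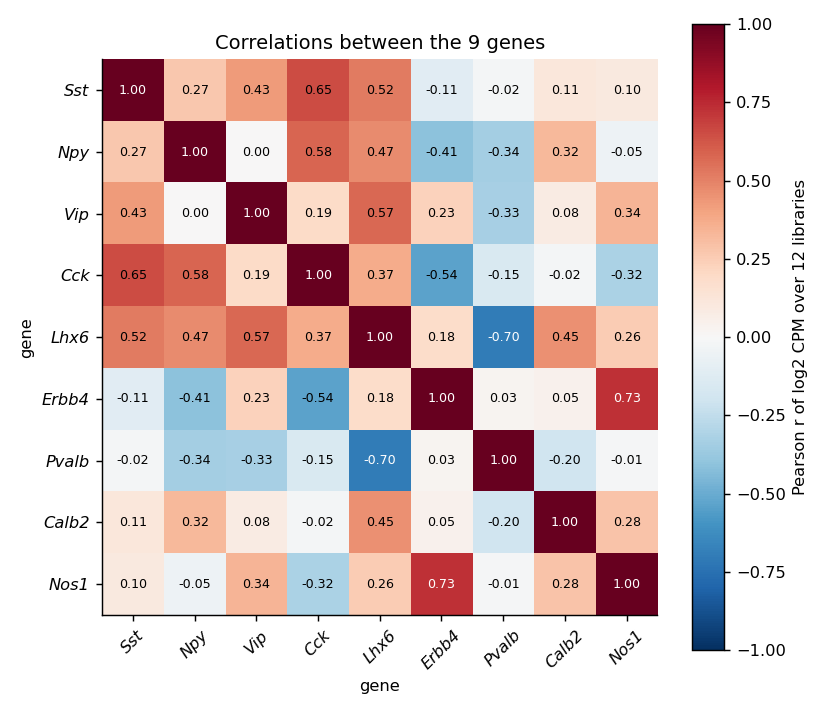
Pearson correlation of log2 CPM over 12 libraries for each pair of the 9 genes, from blue (-1) to red (1), with the value in each cell. Erbb4 and Nos1 stand highest at 0.73 and Lhx6 and Pvalb lowest at -0.70.

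The genes whose pattern over the 12 libraries was most like each member, among 12762 genes with a mean log2 CPM of at least 1, are given as a description without a test. For Erbb4 they were Dscam (r = 0.97), Trim44 (0.96) and Tmod2 (0.94), and for Nos1 Shc3 (0.95), Tenm3 (0.94) and Kif21b (0.94). Dscam, Tmod2, Tenm3 and Kif21b have 8800, 11683, 10237 and 12184 bases of exon, while Trim44 and Shc3 have 5645 and 4586. For Cck they were Nsfl1c (0.95), Ndufv1 (0.93) and Cacnb3 (0.92), and for Sst Ccdc116 (0.94), Atp6v1g1 (0.93) and Ppp2r2b (0.92). Npy was most like Alkbh7 (0.89), Babam2 (0.86) and Sh2b2 (0.84), and Vip most like Gpat4 (0.93), Mllt11 (0.92) and Ywhae (0.88). Lhx6 was most like Hsdl1 (0.94), Zbtb22 (0.94) and Pdzd4 (0.93), and Calb2 most like Nfatc1 (0.90), Dhdds (0.90) and Epop (0.85). Pvalb had Capn3, Pgbd5 and Vxn (0.81, 0.81 and 0.80), on 4 to 15 counts a library.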

How the data were processed

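Per the labels' protocols, the input was 250 ng of Trizol-extracted RNA and the library kit was TruSeq v2, which does not mark strand. The deposited values are the authors' raw counts for each Ensembl gene. The build was mm10, per the submitters' processing notes, and the aligner and counter, not given in the sources used here, could shift counts of overlapping or similar genes. Symbols were found for 52401 of 52634 identifiers, and 52487 matched GENCODE M21 (GRCm38), the source of coordinates and exon lengths. All 12 columns were matched to samples by title.

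Genes kept by filterByExpr were scaled by TMM and tested with edgeR 4.0.16 (quasi-likelihood, robust) in R 4.3.3, with all 12 libraries in 4 groups of genotype and labelled sex, and adjusted by Benjamini-Hochberg over all genes tested (threshold 0.05). Each SE was derived from the fold change and its F statistic, and intervals use the fit's degrees of freedom. CPM use library totals, and correlations use log2 CPM (TMM, prior count 2) with 100000 resamples. The 6-library fits test one labelled sex alone. Alternatives were DESeq2 1.42.0, RLE scaling, other filters, limma 3.58.1 voom with quality weights, a replicate block, an adjusted p of 0.1 and left-out libraries. Those added after the data were seen were an exon-length offset (lowess span 0.3) and left-out libraries in the 6-library fits. Named genes were the 9 members and, per related list, those called in any fit, or otherwise the 3 with the smallest p for the mean genotype difference. The members and lists were chosen with earlier results of these data known. Genes named for contrast (Gad1, Gad2, other Nrg and Gucy1 genes, Vipr2, Sstr2, Cckar, C1ql2) were chosen after their values were seen. Replicates within a group differed by more than sampling noise (chi-square per degree of freedom 2.52 to 13.8). The tests were tried on simulated counts with known changes.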

Additional observations from a re-analysis of the deposited data

How the results depend on the processing

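Of 748 comparisons of a member's log2 fold change with its value under another setting, 709 kept direction and side of the threshold, 33 changed sign and 6 became called. The 6 were all of Erbb4, lower in each. Scaling by RLE, a filter of 1 CPM in 6 libraries, limma voom, the replicate block (0 genes and 0 members called in each comparison) and an adjusted p of 0.1 called no gene, nor did leaving out SERTfl/fl replicate 1 of both labelled sexes. DESeq2 called 1 gene among labelled females and 1 in the interaction, and no member. With no low-count filter, 103 genes were called among labelled females, 5 among labelled males, 14 in the interaction and 66 for the mean difference, where 1 member, Erbb4, was called (log2 fold change -0.17, adjusted p = 0.0305). Libraries labelled female alone gave 415 genes and 1 member, Erbb4, 441 genes and 1 member with the exon-length offset, and 136 to 464 genes and 0 to 1 members with a library left out. Labelled-male libraries alone gave 0 genes.

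With 1 of 12 libraries left out, calls were 0 except for the mean difference, 0 to 144 genes and 0 to 1 members, the highest without SERTPyramid replicate 2 labelled male (Erbb4, adjusted p = 0.0464). Same-numbered libraries were not paired, since their deviations correlated at -0.23 to 0.23.

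The largest value that turned sign was the Vip interaction, 0.16 ± 0.23 (SE) with all libraries and -0.0031 without SERTPyramid replicate 3 labelled female. The Erbb4 interaction was 0.011 with voom. Without SERTfl/fl replicate 1 of both labels, Lhx6 among labelled females was -0.027 and the Cck interaction -0.015. The mean difference of Calb2 was -0.0063 with the exon-length offset. With libraries left out, in the fits of 12 or 6 libraries, ranges among labelled females were -0.034 to 0.095 (Calb2), -0.032 to 0.067 (Lhx6), -0.0070 to 0.028 (Nos1) and -0.21 to 0.074 (Vip). Among labelled males they were -0.076 to 0.038 (Calb2), -0.015 to 0.11 (Cck) and -0.089 to 0.0080 (Sst). For the mean they were -0.023 to 0.042 (Calb2) and -0.0082 to 0.079 (Sst), and for the interaction -0.022 to 0.11 (Calb2), -0.14 to 0.049 (Erbb4) and -0.0031 to 0.28 (Vip). Uncalled values that kept their sign also moved, such as Npy among labelled males, 0.0041 to 0.097. The cause was not tested. Correlations passing adjustment were 0 of 36 with all libraries and without the 2 farthest. Depth limits Pvalb and Vip most.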
